A study of Mus musculus with 4 samples.

Results

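Hox genes encode homeodomain transcription factors that give body regions their identity along the head-to-tail axis, and in mammals they lie in 4 clusters. Within a cluster, the order of the genes on the chromosome mirrors the order in which they are used in the embryo: genes with low paralog numbers act toward the head, and genes with high numbers act toward the tail. Polycomb proteins keep unused Hox genes compacted and trithorax proteins keep used ones accessible, and adult cells, including those of fat depots, retain a Hox pattern that reflects where in the body they came from.

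The members described here were 38 of the 39 mouse Hox genes, taken by their symbols, and 1 Hox gene was not analysed here. They comprised 10 Hoxa genes on chromosome 6, 10 Hoxb genes on chromosome 11, 9 Hoxc genes on chromosome 15 and 9 Hoxd genes on chromosome 2, together with the window of each cluster from 20 kb before its first to 20 kb past its last member. The 4 windows spanned 645 kb of the mm10 genome (the GRCm38 assembly), and the flank beside Hoxa2 holds the Hox gene that was not analysed here.

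Accessible chromatin was measured by ATAC-seq, in which a transposase cuts and tags open DNA, on nuclei of visceral adipose tissue from 8-week-old CD-1 mice, an outbred stock. The control group held 2 libraries from the line of dams injected with sesame oil, the vehicle. The BPA group held 2 libraries from the line of dams that received bisphenol A (BPA), a compound used to make plastics, by injection of 50 mg/kg. Both kinds of injection were intraperitoneal and daily from embryonic day 7.5 to 13.5. Per the methods of the study, the mice sampled were later-generation descendants of these dams and were not treated themselves. The labels and the methods of the study give different generations for the BPA animals, the labels give neither sex nor batch, and adipose tissue of an outbred stock holds many cell types and genotypes, so fewer cells of a type and less accessibility per cell cannot be told apart in these libraries. With 2 libraries a group, the smallest two-sided p of an exact permutation test is 0.333, so no test was run between the groups, and all differences below are descriptions of these 4 libraries.

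The deposited lists held between 72375 peaks (BPA 1) and 98060 peaks (BPA 2), with 82665 in control 1 and 88911 in control 2. The median number of reads piled up at a peak summit was 22, 23, 19 and 37 in control 1, control 2, BPA 1 and BPA 2, the order used for all values below. The BPA 2 library was therefore the deepest as the lists show it, and BPA 1 the shallowest. The 7 adipocyte markers had a promoter peak in every library and the 3 hepatocyte markers in none. Of 5 endothelial markers, 2 had a promoter peak in each control library and 5 in each BPA library, with Pecam1, Cdh5 and Erg in the BPA libraries alone. Adipose progenitor and fibroblast markers were open in 5, 5, 6 and 6 of 6, leukocyte markers in 2, 2, 3 and 3 of 6, mesothelial markers in 3, 2, 2 and 1 of 4, and epithelial markers in 2, 0, 2 and 2 of 3.

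A gene is called open below when at least 1 peak overlapped the stretch from 500 bp before to 500 bp past a curated RefSeq start site. The promoters below, taken from the RefSeq promoter table on GRCm38.p6 (250 bases before to 50 bases past the start), show the range of sequence behind the open and closed members. Hoxa5 and Hoxb4 were open in every library, Hoxb8 and Hoxd12 in none, and Hoxd13 in the BPA libraries alone. Capitals mark 5 motifs read on both strands, which can overlap where copies are adjacent: the GC box GGGCGG, the CCAAT box CCAAT, the TATA box TATAAA, the homeodomain core TAATTA and the Hox and Pbx composite TGATTNAT.
Hoxa5, chr6:52204538-52204837, - strand: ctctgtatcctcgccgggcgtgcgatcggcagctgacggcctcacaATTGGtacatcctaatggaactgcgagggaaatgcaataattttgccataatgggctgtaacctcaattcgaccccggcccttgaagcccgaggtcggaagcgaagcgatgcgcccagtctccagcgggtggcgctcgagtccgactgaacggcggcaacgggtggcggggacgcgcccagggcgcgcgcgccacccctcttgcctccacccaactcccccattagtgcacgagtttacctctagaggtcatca
Hoxb4, chr11:96318017-96318316, + strand: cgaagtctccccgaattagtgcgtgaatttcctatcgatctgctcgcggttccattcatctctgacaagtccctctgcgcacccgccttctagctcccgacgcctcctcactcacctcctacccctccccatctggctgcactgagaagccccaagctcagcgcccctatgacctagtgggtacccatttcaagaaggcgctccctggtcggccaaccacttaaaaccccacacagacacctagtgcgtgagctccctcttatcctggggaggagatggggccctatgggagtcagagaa
Hoxb8, chr11:96281655-96281954, + strand: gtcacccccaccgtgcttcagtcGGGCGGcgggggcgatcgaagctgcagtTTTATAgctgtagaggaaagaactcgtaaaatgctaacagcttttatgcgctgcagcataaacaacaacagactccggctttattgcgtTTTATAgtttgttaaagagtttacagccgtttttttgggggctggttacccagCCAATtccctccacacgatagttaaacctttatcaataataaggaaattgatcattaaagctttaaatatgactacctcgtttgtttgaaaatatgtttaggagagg
Hoxd12, chr2:74674763-74675062, + strand: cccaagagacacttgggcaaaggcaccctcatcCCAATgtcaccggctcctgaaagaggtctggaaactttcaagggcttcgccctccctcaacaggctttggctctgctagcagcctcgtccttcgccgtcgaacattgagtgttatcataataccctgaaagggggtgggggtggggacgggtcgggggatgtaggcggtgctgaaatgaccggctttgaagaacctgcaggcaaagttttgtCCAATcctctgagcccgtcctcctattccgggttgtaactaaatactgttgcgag
Hoxd13, chr2:74667975-74668274, + strand: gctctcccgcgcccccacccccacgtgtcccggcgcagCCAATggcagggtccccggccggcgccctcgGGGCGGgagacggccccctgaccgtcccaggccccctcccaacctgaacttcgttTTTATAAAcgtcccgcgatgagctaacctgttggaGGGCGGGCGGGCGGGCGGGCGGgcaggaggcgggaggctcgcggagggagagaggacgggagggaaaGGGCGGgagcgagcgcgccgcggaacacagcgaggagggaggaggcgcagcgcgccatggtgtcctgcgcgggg

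The GC box was found in 7 places in the Hoxd13 promoter, 5 of them in an unbroken run, and Hoxb4 held none of the 5 motifs. The table held 24 promoters for 22 of the 38 members. Of these 24, the GC box was in 10 (41.7%) beside 35.7% of all 32851 promoters in the table, and the CCAAT box was in 15 (62.5%) beside 37.4%. The TATA box was in 4 (16.7%) beside 13.6%, namely in Hoxa10, Hoxb8, Hoxd4 and Hoxd13. The homeodomain core was in 2 (8.33%, both start sites of Hoxd11) beside 5.29%, and the composite was in 2 (8.33%, Hoxa2 and Hoxd11) beside 3.22%. These matches are letters in a window and say nothing of binding.

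Base composition over the full promoter of 500 bp either side was read from the genome for all 38 members, with no test between open and closed ones. The GC content had a median of 55.3% over the 15 members open in every library, 58.4% over the 15 open in some and 54.4% over the 8 open in none, beside 55.6% over 21000 protein-coding genes. The ratio of observed to expected CpG, which is high in CpG islands, had medians of 0.662, 0.7 and 0.517 over the same 3 sets, beside 0.572. The ranges overlapped widely, since the 8 closed members ran from 0.256 (Hoxd4) to 0.956 (Hoxc12) and the 15 open ones from 0.401 (Hoxb2) to 0.996 (Hoxa5). The low median of the closed set rests in part on Hoxd4 and Hoxa7 (0.328). Both were closed at the start site but had a peak at the coding start in every library. Hoxa13 at 0.931 and Hoxc12 were closed at CpG-rich promoters.

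Promoter peaks were found at 18, 18, 25 and 27 of the 38 members, or 47.4%, 47.4%, 65.8% and 71.1%, beside 62.6%, 61.4%, 64.1% and 67.4% of all 21000 protein-coding genes in the same libraries. The mean was 18 ± 0 (SD, n = 2) in the control group and 26 ± 1.41 (SD, n = 2) in the BPA group. The Hox genes thus lay below the background in both control libraries and slightly above it in both BPA libraries. In all, 15 members, or 39.5%, were open in every library beside 57.9% of protein-coding genes, and 8 members, or 21.1%, were open in none beside 30.4%. The remaining 15 were open in some libraries only.

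Members open in every library were Hoxa3, Hoxa4, Hoxa5, Hoxb2, Hoxb4, Hoxb7, Hoxc4, Hoxc5, Hoxc6, Hoxc8, Hoxd1, Hoxd3, Hoxd8, Hoxd9 and Hoxd10. Those open in none were Hoxa7, Hoxa13, Hoxb3, Hoxb8, Hoxb13, Hoxc12, Hoxd4 and Hoxd12. Members open in some libraries were Hoxa2, Hoxa6, Hoxa9, Hoxa10, Hoxa11, Hoxb1, Hoxb5, Hoxb6, Hoxb9, Hoxc9, Hoxc10, Hoxc11, Hoxc13, Hoxd11 and Hoxd13. By cluster, open members numbered 3, 5, 5 and 7 of 10 in Hoxa, 4, 3, 7 and 6 of 10 in Hoxb, 5, 5, 6 and 7 of 9 in Hoxc, and 6, 5, 7 and 7 of 9 in Hoxd.

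**Figure D1:**
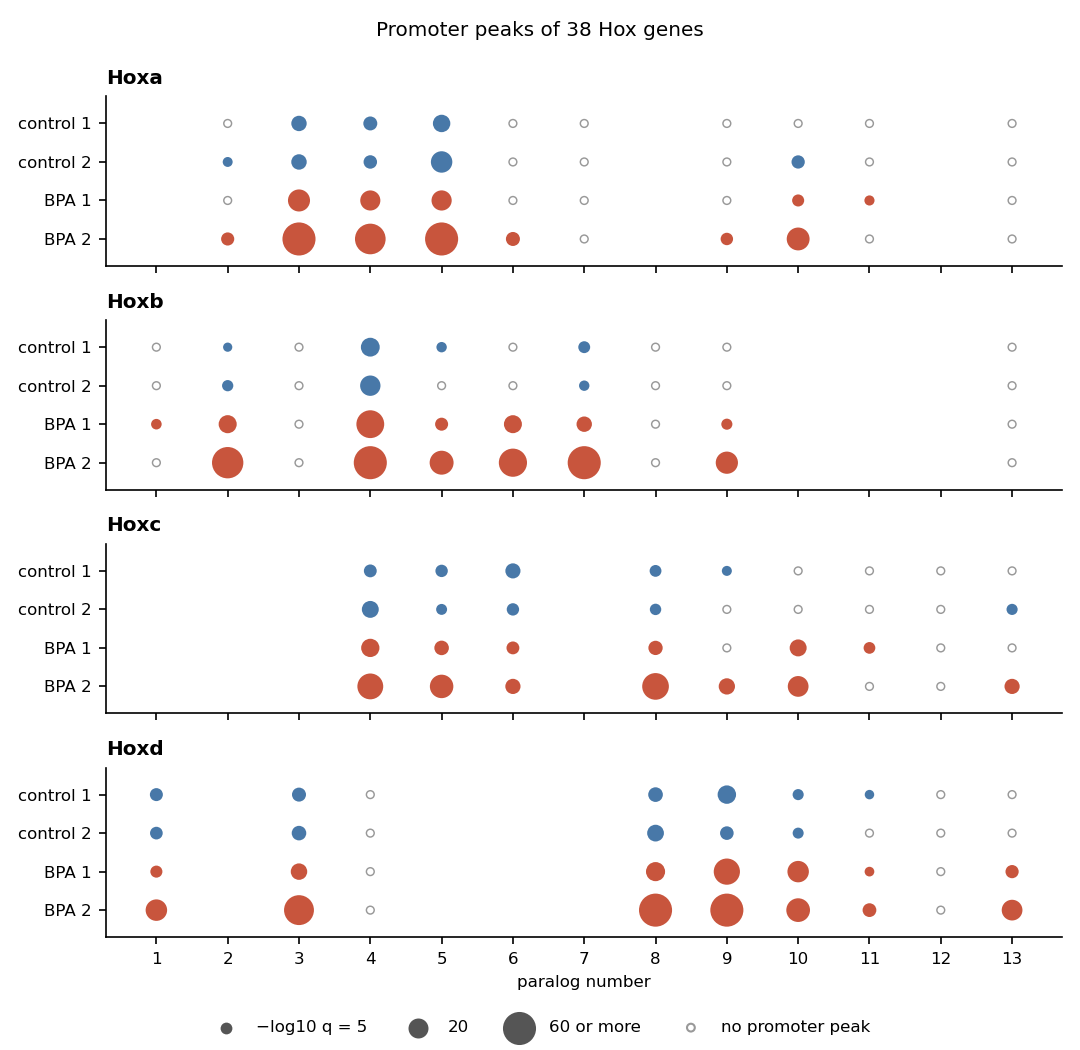
Promoter peaks of the 38 Hox genes by paralog number (horizontal axis) and library (vertical axis), one panel per cluster. Filled points are genes with a promoter peak, their area growing with the −log10 q-value up to 60, open circles are members with no promoter peak, and blank places hold no member. In the control libraries the filled points at paralogs 9 to 13 number 4 each, and in BPA 1 and BPA 2 they number 9 and 10.

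With the full peak lists, most of the difference between the groups lay at the high-numbered end of the clusters. Among the 7 members with paralog numbers 1 to 3, 4, 5, 5 and 5 were open, and among the 15 with numbers 4 to 8, 10, 9, 11 and 12 were open. Among the 16 members with numbers 9 to 13, the genes of the lower trunk, limbs and tail, 4 (25%) were open in each control library, and 9 (56.2%) and 10 (62.5%) in the BPA libraries. The control libraries did not share the same 4, however: Hoxd9 and Hoxd10 were open in both, Hoxc9 and Hoxd11 in control 1 alone, and Hoxa10 and Hoxc13 in control 2 alone. No test compared the paralog classes, and the place of the difference depended on the peaks kept. With the best 20000 peaks the BPA mean exceeded the control mean by 2, 3 and 1 members in the low, middle and high classes, where it did so by 0.5, 2 and 5.5 with the full lists. With −log10 q-values from 5 up, the excess was 1.5, 4 and 6.

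**Figure D2:**
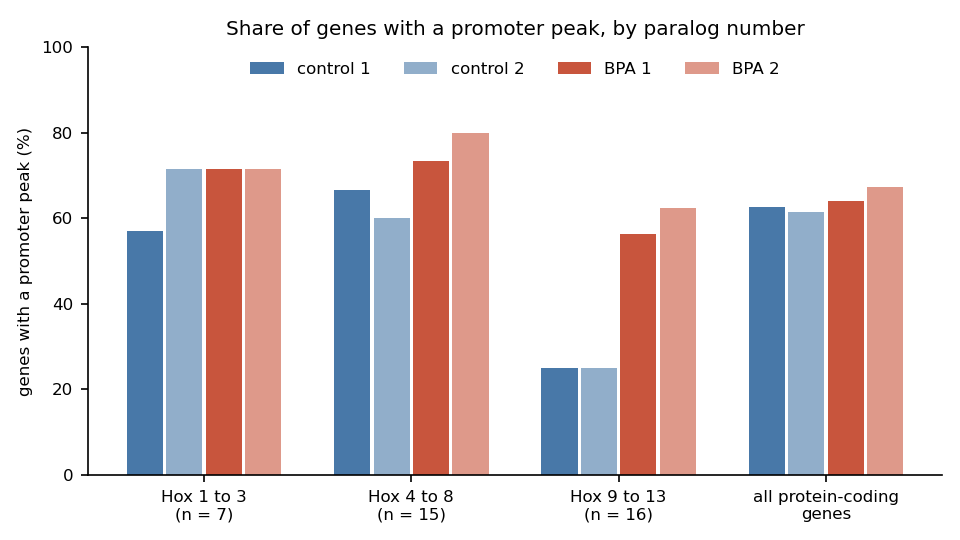
Share of genes with a promoter peak (percent, vertical axis) for Hox paralogs 1 to 3, 4 to 8 and 9 to 13 and for all 21000 protein-coding genes, one bar per library and no error bars since each bar is 1 library. At paralogs 9 to 13 the control bars stand at 25% and the BPA bars at 56.2% and 62.5%, while the bars of all protein-coding genes run from 61.4% to 67.4%.

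A further pattern was a promoter open in the BPA pair and closed in the control pair. It was shown by 4 members (10.5%) beside 2.51% of protein-coding genes, and 0 members showed the opposite pattern beside 0.433%. Genes open in every library or in none could not show either pattern. They made up 57.9% and 30.4% of protein-coding genes but 39.5% and 21.1% of the members, so the shares over all genes are not alike. Of the 15 members open in some libraries only, 4 showed the pattern, and the matching share of protein-coding genes was not counted. With 38 members, the absence of the opposite pattern carries no weight. The 4 members were Hoxb6, Hoxb9, Hoxc10 and Hoxd13. Hoxb6, a mid-trunk gene, had promoter peaks with −log10 q-values of 15.6 in BPA 1 and 42.7 in BPA 2, at ranks of 30.1% and 19.9% of the list, where 0% is the best. Hoxc10, a posterior gene of the lumbar region and hindlimb, had values of 13.6 and 21.8, at ranks of 34.4% and 36.6%. Hoxb6 and Hoxc10 thus stood in the better part of both BPA lists, and no control peak overlapped either promoter at the RefSeq start sites. At GENCODE transcript starts, however, Hoxb6 was open in all 4 libraries, controls included.

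Hoxd13, the last gene of its cluster and a patterning gene of the digits and genital region, had −log10 q-values of 7.04 in BPA 1 and 21.7 in BPA 2. Its peak lay past the GC boxes printed above, with the summit 265 bp and 232 bp from the start site. Hoxb9, a thoracic gene, had the weakest peak of the 4 in BPA 1, with a value of 4.09 at a rank of 83.3%, and 25.4 at 32.1% in BPA 2. With equal numbers of peaks per library the members open in the BPA libraries alone numbered 5, with Hoxd11 added, beside 2.7% of protein-coding genes. Of the 10 ways of scoring tried, Hoxc10 was open in the BPA libraries alone in 9, Hoxb6 and Hoxd13 in 8 and Hoxb9 in 7. Hoxb9 was open in no library when the summit had to lie inside the promoter. With −log10 q-values from 5 up the members open in the BPA libraries alone were Hoxb2, Hoxb5, Hoxb6, Hoxc10, Hoxd10 and Hoxd13, and with the best 20000 peaks they were Hoxa3, Hoxa4 and Hoxd8, so that all 4 members above dropped out of the pattern there. The share of protein-coding genes open in the BPA libraries alone was not counted at either cut, so these lists have no background beside them. Endothelial markers also had more promoter peaks in the BPA libraries, as given above, and the part of cell composition in these Hox calls was not tested.

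Other homeobox genes showed a like share. Of 67 genes in the Pax, Dlx, Lhx, Irx, Nkx and related families, which pattern organs outside the Hox clusters, 26, 19, 32 and 45 were open, 16 (23.9%) were open in every library, 21 (31.3%) in none, and 7 (10.4%) in the BPA libraries alone. The share of 10.5% in the Hox genes was therefore not particular to them. Genes that act with or on Hox genes were open nearly throughout. The 9 Hox cofactors of the Pbx, Meis and Pknox families, which bind DNA together with Hox proteins, were open in every library, and 16, 17, 17 and 17 of the 18 Polycomb and trithorax regulators were open. Among the regulators, Ezh1, a Polycomb methyltransferase, was open in all but control 1, and Kdm6b, a demethylase that counteracts Polycomb, was open in none.

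Hox promoter peaks were weak beside those of other genes. The median rank of the best promoter peak over the open members was 47.4%, 53.2%, 42.9% and 28.1% of the list, and over all open protein-coding genes it was 9.55%, 10.9%, 9.54% and 7.08%. Among the best 20000 peaks of each library, only 3, 2, 7 and 10 of the 38 members kept a promoter peak, beside 47.4%, 43.2%, 51.8% and 54.1% of protein-coding genes. The authors' fold over local background had a median of 3.22, 3.55, 4.83 and 4.87 over the open members and of 6.03, 6.84, 10.3 and 9.39 over open protein-coding genes. Both sides of this ratio were recovered from the fold and the p-value. The median summit pile-up was 33.5, 28.5, 35 and 110 reads at Hox promoters and 55, 54, 76 and 212 at open promoters of protein-coding genes, and the median local background was 8.01, 7.32, 5.31 and 23.5 at Hox promoters and 7.98, 7, 6.21 and 20.6 at those of protein-coding genes. Hox promoters thus had fewer reads at the summit in every library, with a slightly higher median background in the control libraries, a higher one in BPA 2 and a lower one in BPA 1. In BPA 2 the protein-coding values rest on 12210 of 14164 open promoters, since the p-values of the other 1954, the strongest peaks, were too small to solve, while the peaks of all 27 open Hox members were solved.

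**Figure D3:**
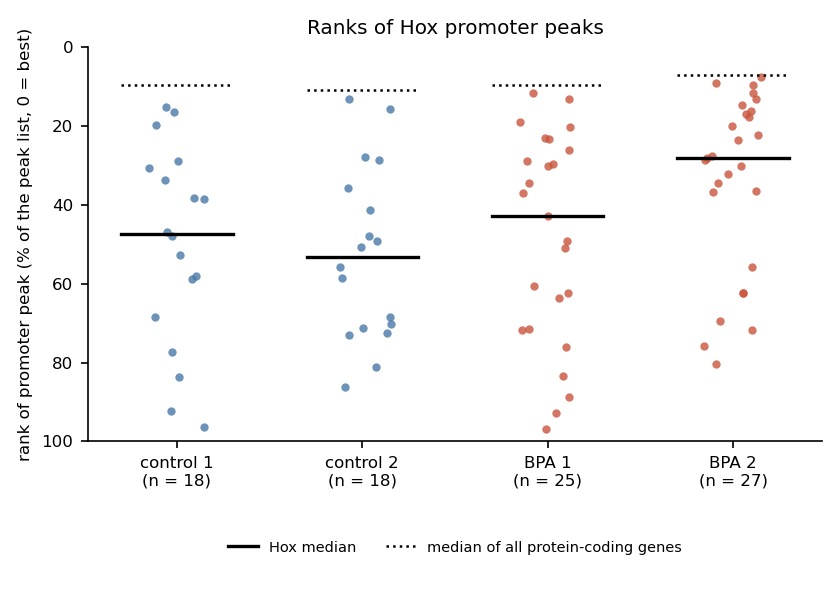
Rank of the best promoter peak of each open Hox gene (percent of the peak list, vertical axis running down from 0, the best) in each library, one point per gene, with n open genes under each library. Solid lines are the Hox medians (47.4%, 53.2%, 42.9% and 28.1%) and dotted lines the medians of all open protein-coding genes (9.55%, 10.9%, 9.54% and 7.08%); every Hox point lies below the dotted line of its library.

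Among the 15 members open in every library, both BPA ranks were better than both control ranks for 11 (73.3%) beside 40.7% of the protein-coding genes open in every library, and both were worse for 1, Hoxc6, beside 18.7%. Both BPA folds were higher than both control folds for 13 of the 15 (86.7%) beside 86.4%. Higher folds in the BPA libraries were thus as common among all genes as among Hox genes. The shares for ranks cannot be set against each other in the same way, because the lists differ in length and the other genes lay near the top of each list, with little room to move up.

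In the Hoxa cluster the highest paralog open in each library was 5, 10, 11 and 10, and the highest open in every library was Hoxa5. Hoxa5, a gene of the neck and thorax that is used in adipose tissue, had −log10 q-values of 14.5, 23.5, 20.5 and 81.9, at ranks of 19.7%, 13.3%, 23.1% and 11.5%. Its neighbour Hoxa6 had a promoter peak in BPA 2 alone, with a value of 8.32 at a rank of 69.6%. The step from Hoxa5 to Hoxa6 thus went from a peak in every library to a weak peak in BPA 2 alone. In BPA 2 the Hoxa6 summit held 101 reads over a local background of 49.8, beside 195 reads over 32 at Hoxa5. The next gene, Hoxa7, was closed at its start site but was open in every library in 3 of the 10 ways of scoring. The step is therefore one of calls at the curated start sites.

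Hoxa3, an anterior gene of the pharyngeal region, had values of 10.6, 10.7, 25 and 60.1 at ranks of 28.9%, 35.7%, 19% and 14.8%. These peaks lay at a curated start site 40418 bp from the coding start, in the interval between Hoxa6 and Hoxa7, so that the step in gene order was not a step in space. Hoxa4 was open with 8.24, 7.47, 20.3 and 51.1. At the head end, Hoxa2, a hindbrain gene, was open in control 2 and BPA 2 only, with weak peaks of 2.69 and 6.95.

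Past the boundary, Hoxa9 and Hoxa11 each had a peak in 1 library, with 5.9 in BPA 2 and 2.92 in BPA 1. Hoxa10, a posterior gene, was open in 3 libraries at its upstream start site, with 7.16 in control 2, 5.37 in BPA 1 and 27.1 in BPA 2, and had no promoter peak in control 1. The replicates of a group thus disagreed on Hoxa9 and Hoxa11, and the groups overlapped for Hoxa10 at its upstream start site. At its other start site, 5 bp from the coding start, Hoxa10 was open in BPA 1 and BPA 2 alone, with 4.86 and 6.78. When only the start site nearest to the coding start was scored, Hoxa10 joined the members open in the BPA libraries alone. Hoxa13, the terminal gene, had no promoter peak in any library, although a region over its exon was open in BPA 1 and BPA 2 with 4.64 and 11.1.

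In the Hoxb cluster the highest open paralog was 7, 7, 9 and 9, and Hoxb7 was the highest open in every library. Hoxb4, a gene also known from blood stem cells, carried the best-ranked promoter peak of the 38 members in control 1, BPA 1 and BPA 2. Its −log10 q-values were 17.4, 20.9, 41.6 and 136, at ranks of 15.2%, 15.8%, 11.7% and 7.71%. Hoxb7 had values of 5.15, 3.21, 10.7 and 68.2, with a summit pile-up of 18, 14, 31 and 187 reads, so that the BPA libraries were higher and did not overlap the controls in either measure. Neither measure is scaled to the library. The median pile-up at open promoters of protein-coding genes was likewise higher in both BPA libraries (55, 54, 76 and 212 reads).

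Hoxb8, the next gene up, had no promoter peak in any library and none in any of the 10 ways of scoring. It stood between an open Hoxb7 on one side and, in the BPA libraries, an open Hoxb9 on the other. Hoxb2, a hindbrain gene, was open in every library, with 1.89, 4.3, 15.8 and 53.6, which spanned ranks from 96.5% in control 1 to 16.3% in BPA 2. Hoxb5 was open in control 1, BPA 1 and BPA 2 with 3.23, 6.76 and 30. Hoxb1 was open in BPA 1 alone with 3.45. Hoxb3 and Hoxb13 were closed at their start sites throughout.

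In the Hoxc cluster the highest open paralog was 9, 13, 11 and 13, and Hoxc8 was the highest open in every library. Hoxc4, the first gene, had −log10 q-values of 6.52, 13.5, 16.3 and 35.5, and Hoxc8, a thoracic gene, had 5.05, 4.5, 8.77 and 38. Hoxc6 was the exception among the open genes, with 10.2, 5.83, 6.54 and 10.3 at ranks of 30.7%, 58.7%, 63.6% and 62.3%, so that both BPA ranks were worse than both control ranks. Hoxc5 was open in every library with 5.85, 3.91, 9.17 and 28.7.

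Above Hoxc8 the libraries differed from each other. Hoxc9 was open at its start site in control 1 and BPA 2 with 2.78 and 12.3, and Hoxc11 in BPA 1 alone with 4.93. Hoxc13, a gene of hair and nail, was open in control 2 and BPA 2 with 4.15 and 10.3, while Hoxc12 was closed in every library and every way of scoring. The highest open paralog of 13 in control 2 therefore rested on a single weak peak above 4 closed members.

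In the Hoxd cluster the highest open paralog was 11, 10, 13 and 13, and Hoxd10 was the highest open in every library. Hoxd8 had −log10 q-values of 9.36, 13.2, 18.1 and 110, and Hoxd9 had 16.6, 7.64, 36.6 and 105. Hoxd10, a limb gene, had 4.09, 3.97, 23.5 and 29.3, with ranks of 68.4%, 72.6%, 20.2% and 28.2%, the widest gap in rank between the groups among the 4 boundary members. Hoxd11, next up, was open in 3 libraries with 2.17 in control 1, 2.42 in BPA 1 and 7.91 in BPA 2, all at ranks of 71.8% or worse.

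Between Hoxd11 and Hoxd13, Hoxd12 had no promoter peak in any library under any way of scoring. Hoxd1 was open in every library with 6.72, 6.27, 5.39 and 23.6, and Hoxd3 with 8.31, 9.21, 12.6 and 48.5. The Hoxd3 peak lay at a start site 32019 bp from its coding start, between Hoxd8 and Hoxd4, and no peak lay within 500 bp of that coding start.

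For 5 members the call depended on whether the start site or the coding start was scored. They were 4 of the 9 members with every start site more than 500 bp from the coding start (Hoxa7, Hoxc9, Hoxd3 and Hoxd4) and Hoxa13 among the other 29, while Hoxa3, Hoxa9, Hoxb4, Hoxb8 and Hoxd8 had the same calls at both. Hoxa7 was closed at its curated start site, 1168 bp from the coding start, but a peak lay at the coding start in every library (region chr6:52216852-52217979, in an exon), with −log10 q-values of 7.98, 10.7, 16 and 52.2 and summits at -114, -92, -73 and 51 bp relative to the first coding base. Hoxd4 was closed at its start site, 5301 bp from the coding start, and open at the coding start in every library (chr2:74726603-74727610, in an exon) with 7.49, 8.27, 4.29 and 8.28. Hoxc9 was open at its coding start in every library (chr15:102980967-102982320) with 4.33, 5.1, 10.1 and 29.4, where it was open at its start site in 2 libraries. The Hoxd4 values did not separate the groups, whereas those of Hoxa7 and Hoxc9 were higher in both BPA libraries. How many protein-coding genes had higher values at the coding start in both BPA libraries was not counted.

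Scored at coding starts, 19, 20, 27 and 29 of the 38 members had a peak, or 50%, 52.6%, 71.1% and 76.3%, beside 45.9%, 44.6%, 47.1% and 51% of protein-coding genes. Of the 38, 17 (44.7%) had one in every library beside 41%, and 6 (15.8%) in none beside 46.4%. Those 6 were Hoxb3, Hoxb8, Hoxb13, Hoxc12, Hoxd3 and Hoxd12. The Hox genes thus lay below the background of all genes at start sites in the control libraries and above it at coding starts in every library. The background itself was lower at coding starts than at start sites. The same 4 members, Hoxb6, Hoxb9, Hoxc10 and Hoxd13, had a peak at the coding start in both BPA libraries alone, 10.5% beside 2.46%. This background is likewise over all genes, those with a peak in every library or in none included.

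Accessible regions away from the member promoters outnumbered those at them. Merged over the libraries, the 4 windows held 95 accessible regions, of which 31 overlapped a member promoter and 64 did not, with 53 of the 64 inside the span of the member genes and 11 in the flanks. Of these 64, 33, 35, 35 and 49 had a peak in each library, 20 (31.2%) had one in every library, 24 (37.5%) in 1 library, 7 (10.9%) in both BPA libraries alone and 1 (1.56%) in both control libraries alone. Over 130120 regions of chromosomes 1 to 19 at no promoter of a protein-coding gene, these shares were 20.3%, 43.1%, 10.1% and 5.78%. The share open in the BPA libraries alone was therefore close to that of the genome. The 2 sets are not quite alike, since the 64 leave out promoters of the members only. They include a region at the promoter of Evx2 and one at the promoter of the Hox gene not analysed here. The latter had a peak in every library and is 1 of the 20. At the best summit, 21 of the 64 lay in introns, 19 in exons and 24 between genes. When each pair of peaks had to share 50% of both lengths, 1 of the 20 regions was left, so the peaks shared a place more than an extent.

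The most regular regions lay in the low and middle parts of the clusters. The region between Hoxc8 and Hoxc6 (chr15:102998038-103000929, between genes) had −log10 q-values of 12.2, 14.8, 37.4 and 54.2, each above every Hoxc promoter peak of the same library. The region between Hoxa7 and Hoxa9 (chr6:52221379-52222173, between genes) had 8.1, 14.4, 27.8 and 53.2, and the region between Hoxb5 and Hoxb4 (chr11:96311239-96312375, between genes) had 5.47, 7.74, 32.9 and 69.5. In these 3 regions both BPA values were higher than both control values, a pattern whose share over all regions was not counted. Among protein-coding genes open in every library, both BPA folds were higher than both control folds for 86.4%. An intron of Hoxb3, 2220 bp from its coding start (chr11:96340758-96342782), had 4.25, 6.94, 30.2 and 64, although Hoxb3 itself was closed at its start site. In the interval between Hoxb9 and Hoxb8 a region (chr11:96278528-96279854) was open in every library with 9.91, 11.4, 14.7 and 47.2, close by the closed Hoxb8.

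No region was open in every library in the intervals between Hoxa9, Hoxa10, Hoxa11 and Hoxa13, between Hoxb13 and Hoxb9, between Hoxc13, Hoxc12, Hoxc11 and Hoxc10, or between Hoxd13, Hoxd12, Hoxd11 and Hoxd10. Of the 7 regions in both BPA libraries alone, 4 lay among the high-numbered genes: one between Hoxa11 and Hoxa13, one in an exon of Hoxa13, one between Hoxb13 and Hoxb9 (chr11:96260364-96261985, in an exon of Gm53) and one in an intron of Hoxc11. The other 3 lay in the low and middle parts, between Hoxb5 and Hoxb4 (chr11:96314593-96315212), in an intron of Hoxc8 (chr15:102992184-102992930) and between Hoxd3 and Hoxd1 (chr2:74752902-74753946, in an exon of Gm14424). The only one in both control libraries alone lay between Hoxa3 and Hoxa4 (chr6:52176866-52177543), with 2.78 and 3.95.

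**Figure D4:**
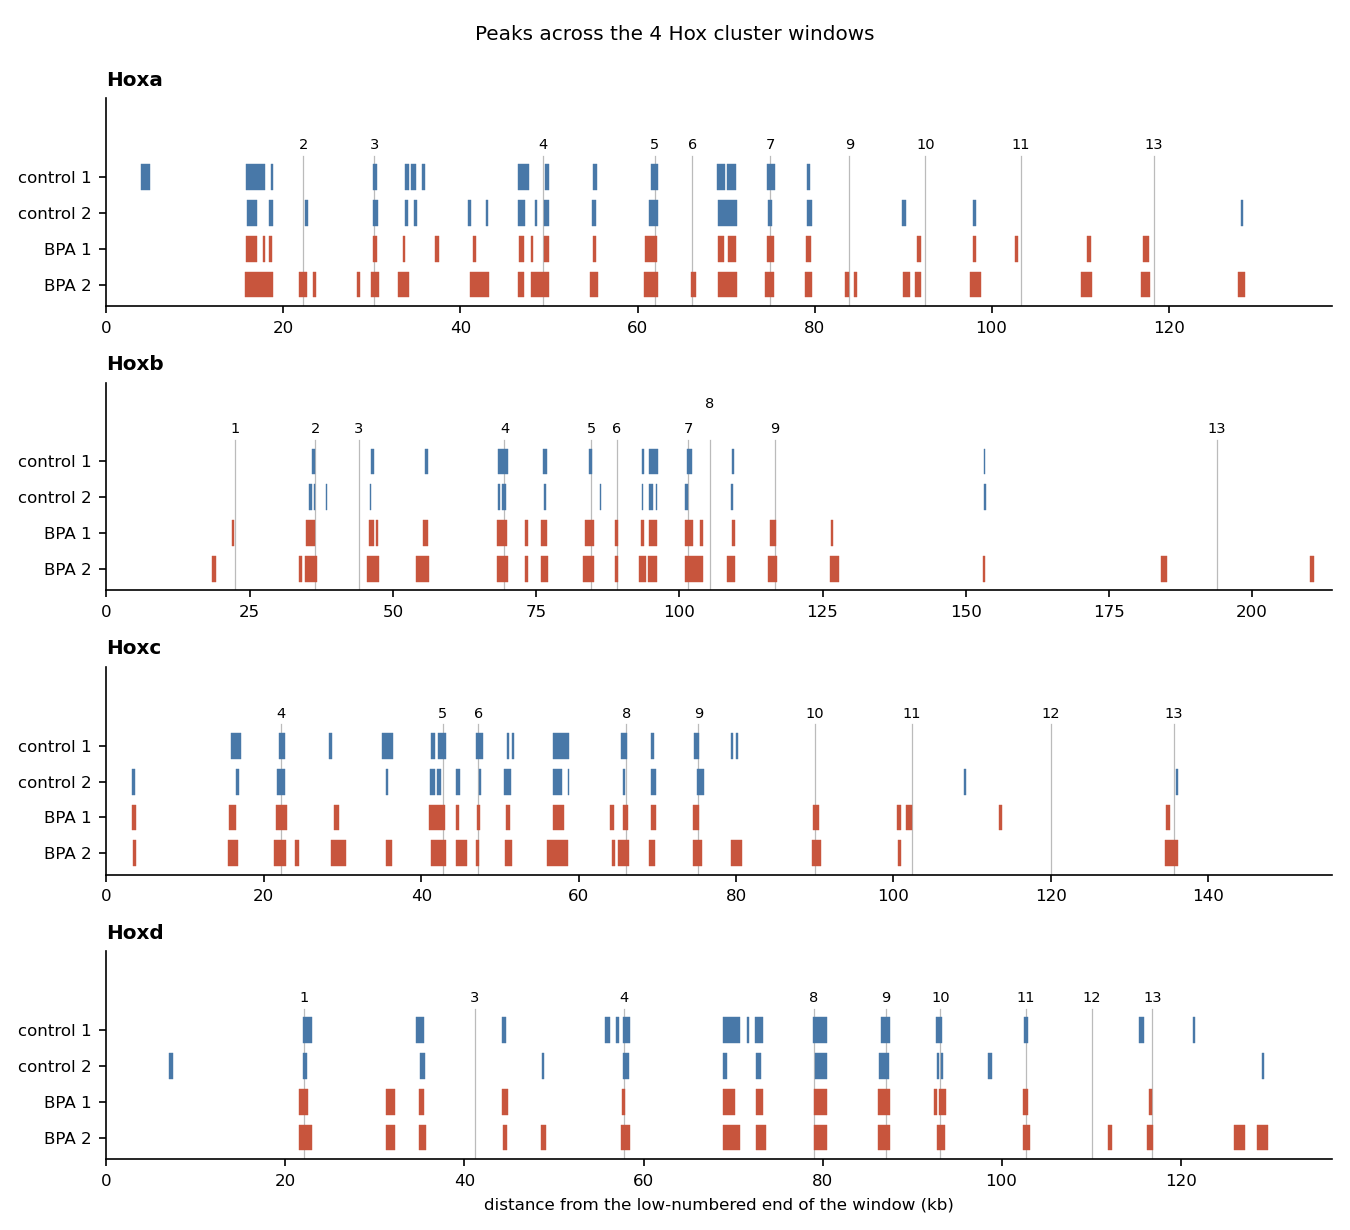
Peaks (boxes) of each library across the 4 cluster windows, plotted as distance in kb from the low-numbered end, with grey lines and numbers at the coding start of each member. Peaks lie mostly in the low and middle parts of the clusters, with gaps between them, and thin out toward paralogs 9 to 13. There the BPA rows hold more of them, and no box stands at Hoxb13 or Hoxc12. The peaks left of Hoxa2 lie in the flank that holds the Hox gene not analysed here.

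Peaks covered 6.5%, 4.82%, 7.92% and 13.9% of the 4 windows, beside 2.31%, 2%, 1.86% and 3.47% of chromosomes 1 to 19. The covered length was 41.9, 31.1, 51.1 and 90 kb, with a mean of 36.5 ± 7.67 kb (SD, n = 2) in the control group and 70.5 ± 27.5 kb (SD, n = 2) in the BPA group, whose SD nearly reached the difference between the means. BPA 1 covered more of the windows than either control library although its list was the shortest and covered the least of the chromosomes.

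The clusters also hold microRNA genes that regulate Hox and other messages. None of miR-10a, miR-10b, miR-196a or miR-196b had a peak within 500 bp of its annotated start, which is the first base of the hairpin. The start of the longer transcript that holds each hairpin was not scored. The main mature products are shown with the seed (bases 2 to 8) in capitals, since miRNAs with a shared seed can share targets.
mmu-miR-10a-5p: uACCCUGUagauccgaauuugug
mmu-miR-10b-5p: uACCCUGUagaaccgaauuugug
mmu-miR-196a-5p: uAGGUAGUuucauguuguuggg
mmu-miR-196b-5p: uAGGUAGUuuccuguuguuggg
mmu-miR-615-3p: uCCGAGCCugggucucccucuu

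The miR-10 pair share the seed ACCCUGU and the miR-196 group shares AGGUAGU. The Mir10a hairpin lay 961, 1303, 1016 and 856 bp from the nearest peak, which was that of Hoxb4 in each library, and the Mir10b hairpin lay 489, 577, 1064 and 465 bp from the peak at the Hoxd4 coding start. The hairpins of the miR-196 group were farther from any peak, between 2187 and 13584 bp over the 3 genes and 4 libraries. Mir615, inside Hoxc5, was open in every library through the Hoxc5 peak and could not be told apart from it.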

How the data were processed

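Per the labels and the methods of the study, the authors trimmed reads (Trim Galore), mapped them to mm10 with Bowtie2 2.3.5.1, kept unique reads, removed duplicates and ran MACS2 2.2.7.1 on every library separately. The deposited lists give a score (10 times the −log10 q-value, as a whole number), the fold of the summit pile-up over local background, the −log10 p-value and −log10 q-value of the authors' Poisson model, and the summit offset. No read counts were analysed here, so depth is known only through pile-ups, which were recovered as whole numbers from the fold and p-value of 100% of the peaks solved in each library (relative error under 1e-04). Peaks with −log10 p-values from 290 up were not solved.

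Groups came from the labels, and the same-numbered replicates are not described as pairs. A promoter was 500 bp either side of each curated RefSeq start site, for 21000 protein-coding genes on GRCm38. Overlap of 1 bp counted. Peaks were ranked within a library by −log10 q-value. Promoter calls, pile-up recovery, cluster boundaries and covered bases were tested on simulated data first, and the other steps were not. The members and gene lists were chosen with earlier results of these data known, and values per library were given for boundary members, members open in some libraries, the 2 best-ranked members of each cluster and closed members. Promoter sequences of Hoxa4, Hoxb2, Hoxb3, Hoxb5, Hoxb6, Hoxb7, Hoxb9, Hoxb13, Hoxc5, Hoxc6, Hoxc8, Hoxc9, Hoxc10, Hoxc11, Hoxc12 and Hoxc13 were not used here. Python 3.11.15, numpy 2.4.6, pandas 2.3.3, scipy 1.17.1 and matplotlib 3.10.9 were used.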

Additional observations from a re-analysis of the deposited data

How the results depend on the processing

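No paired analysis was possible because the libraries are not described as pairs. The comparisons are counts and ranges with no fitted model. Of 112 values recomputed under alternatives other than leaving out a library, 84 stayed within 1.5 times (counts), on the same paralog or within 1 SD (other values), and 28 moved. The control mean of open members stayed below the BPA mean in every alternative. With the best 20000 peaks the control mean was 2.5 and the BPA mean 8.5, 2 members were open in every library and 27 in none, the highest paralog open in every library was 4 in Hoxb and 0 (none) in Hoxc and Hoxd, the covered length was 4.71 kb in the control group and 21.4 kb in the BPA group, and 0 regions away from promoters were shared by all libraries. Keeping only peaks with −log10 q-values from 5 up, the highest paralog was 4 in Hoxb, 6 in Hoxc and 9 in Hoxd, the control group covered 24.6 kb, and 9 regions were shared. With promoters of 1000 bp either side, 5 members were open in none and the Hoxa boundary was 7. With promoters of 250 bp the Hoxc boundary was 6, and with the summit inside the promoter the Hoxc boundary was 6 and the Hoxd boundary 8. Ranking by fold put the median rank at 70.8% in the control and 59% in the BPA group. Requiring 50% of both lengths left 1 shared region. After the data were seen, coding starts and GENCODE starts were added: the Hoxa boundary became 7 in both and the Hoxc boundary 9 with coding starts, and GENCODE starts left 5 members open in none and a control median rank of 46.2%. The cause of each shift was not tested.

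Leaving out a library gave ranges of 15 to 17 members open in every remaining library, 8 to 11 open in none and 5 to 7 open in the BPA libraries alone (7 without BPA 2). The matching shares of protein-coding genes were not counted. The highest open Hoxa paralog was 5 to 10 (10 without control 1) and the Hoxd one 10 to 11 (11 without control 2). Depth limits every absence, since BPA 1 and both control libraries had median pile-ups of 19 to 23 reads, against 37 in BPA 2. Background differed as well. The lowest local background was 2.85, 2.7, 1.16 and 3.8 reads in control 1, control 2, BPA 1 and BPA 2. BPA 1, the shallowest library, had the lowest background and 25 open members, beside 18 in each control library. The parts of depth and background in the calls were not tested.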

Other observations

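Noncoding genes of the clusters differed among themselves in the same libraries. Of 24 with a start in the windows, 6 were microRNA genes, of which Mir615 was open in every library and 5 in none. Of the other 18, 6, 9, 8 and 10 had a promoter peak, with 5 open in every library and 5 in none. Those open in every library included Haglr, beside Hoxd1, with −log10 q-values equal to those of the Hoxd1 peak in control 1 (6.72), since their start sites share a promoter, and Hoxd3os1 with 4.9 in that library. Hottip, beside Hoxa13 and known for its part in keeping distal Hoxa genes active, and Mira, between Hoxa6 and Hoxa7, were open in none. Hotair, in the Hoxc cluster between Hoxc11 and Hoxc12 and known as a partner of Polycomb proteins, had a peak in control 2 alone. Evx2, the homeobox gene beyond Hoxd13 and the sole other protein-coding neighbour scored, had a promoter peak in BPA 2 alone.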
